A study of Mus musculus with 63 samples.

Results

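Ribosome biogenesis and nucleolar genes were followed in mouse embryonic stem (ES) cells across cell lines, oxygen exposures and seeding densities. The set was a list of 31 named genes, and its members were every probe annotated to one of them. Of the 31 genes, 27 had a probe, 45 probes in all, and Noc2l, Utp20, Wdr43 and Polr1b had none. The probes of Dkc1, Nop16 and Wdr12 lay at or near the lowest reportable value and did not pass the filter on low values. The remaining 24 genes were tested among 8740 genes, each through its probe with the highest mean. On all 63 arrays 22 of them lay above the lowest value. Myc did so on 29 arrays, and Nolc1 lay at the lowest value on 1 array.

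The series measured total RNA on Illumina mouse arrays from 63 cultures of 7 male TT2 (C57BL/6 x CBA) ES cell lines grown in serum and LIF. The lines were 2 JMJD1a KO lines, 2 G9a KO lines, the line G9a KO1 reconstituted for G9a, and 2 wild-type lines (WT1 and WT2). JMJD1a removes methyl groups from histone H3 lysine 9 and G9a adds them. Each line was seeded at 200000, 400000 and 600000 cells per 6 cm plate, and each seeding was given 3 exposures that began 18 h after plating and lasted 24 h: normoxia (21% oxygen), 20 h of normoxia with hypoxia (1% oxygen) for the last 4 h, or 24 h of hypoxia. A genotype and exposure therefore held 6 cultures of 2 lines, or 3 cultures of 1 line for the reconstituted cells, and the 3 cultures of a line and exposure differed in density. The reconstituted line came from a single knockout line, and 2 lines per genotype limit any statement about a genotype. Nothing in the labels gives culture days, and no density was repeated within a line and exposure. The p-values over cultures therefore measure the spread of these plates around the fitted means and density slope. That spread includes any density slope that differs between lines, and it is not one of repeated plates.

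Ribosomes are built in the nucleolus, where RNA polymerase I transcribes the rRNA precursor. Small nucleolar ribonucleoproteins modify that precursor, the box C/D particles by methylation of the ribose and the box H/ACA particles by pseudouridylation, and separate sets of assembly factors process the small and the large subunit. The transcription factor Myc is known to raise the transcription of many of these genes, often through the E-box CACGTG, and proliferating cells such as ES cells make ribosomes at a high rate.

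Signal totals per array lay between 6974757 and 8408782 intensity units, and 40.3% to 46.4% of the 25697 probes lay above the lowest reportable value of 20 units (4.32 on the log2 scale). All levels below are log2 intensities after quantile normalization, and a probe's level cannot be set against another probe's. Runs of 8 arrays in deposition order, called array sets here, held 97.1% of the variance of the array totals and 44.7% of that of the mean of the 24 members. The labels do not name these sets, and what they are is not given. No set held both wild-type and G9a arrays, so that set and genotype cannot be told apart there. Kdm3a, which encodes JMJD1a, lay at the lowest value on all 9 arrays of each JMJD1a KO line, against 10.08 to 11.39 in the other lines. Ehmt2, which encodes G9a, had 7.43 to 8.98 in the G9a KO lines, 7.9 to 9.6 in the reconstituted line, and 8.36 to 9.77 in the other lines, which overlap. The position of its probe relative to the deletion is not given. The Y-linked gene Eif2s3y lay at the lowest value on 5 of 9 arrays of WT2 and reached at most 5.52 there, whereas it had 7.16 or more in every other line, so results that rest on WT2 are also given without it. All 10 ES cell markers lay above the lowest value on all arrays. Of 10 fibroblast markers with a probe, 2 did so and 5 lay at the lowest value on all arrays, and of 9 markers of early differentiation none did so and 3 lay at the lowest value throughout.

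Seeding density was examined first, as the common slope per 100000 seeded cells over all 63 cultures, within each line and exposure. Ribosome biogenesis genes were lower in denser cultures: 14 of the 24 members fell and 0 rose (limma, Benjamini-Hochberg adjusted p below 0.05), against 17.7% of all genes tested that fell and 15% that rose. Of the 24 slopes 22 were negative, and their median was -0.026 per 100000 cells, against 0 for all genes. The changes were small, between -0.10 and -0.30 on the log2 scale over the whole range from 200000 to 600000 cells for the 14 that fell. All 4 large subunit assembly factors tested fell, namely Pes1 and Bop1 (partners in the PeBoW complex), Nop2 (an rRNA cytosine methyltransferase) and Nip7 (a factor of rRNA precursor processing).

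The promoters of the 3 measured members with an E-box are shown. These 3 genes fell with density, but so did 14 of the 24 members tested. Polr1a, Nop58, Gar1, Rrp9, Nob1, Nip7, Ncl and Nolc1 also fell, and their promoters held no CACGTG. The windows run from 250 bases before to 50 bases after the annotated start (RefSeq, GRCm38.p6), each on the plus strand, 5′ to 3′, with CACGTG in capitals. The Pes1 window is chr11:3963725-3964024, that of Nop2 is chr6:125131633-125131932, and that of Mybbp1a, which encodes a nucleolar Myb-binding protein, is chr11:72441077-72441376.
Pes1: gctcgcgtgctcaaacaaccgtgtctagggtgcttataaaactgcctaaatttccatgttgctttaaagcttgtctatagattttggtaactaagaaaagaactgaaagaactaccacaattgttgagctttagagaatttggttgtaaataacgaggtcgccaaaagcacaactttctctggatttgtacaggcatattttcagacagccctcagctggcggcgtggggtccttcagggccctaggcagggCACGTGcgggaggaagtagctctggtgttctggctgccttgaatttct
Nop2: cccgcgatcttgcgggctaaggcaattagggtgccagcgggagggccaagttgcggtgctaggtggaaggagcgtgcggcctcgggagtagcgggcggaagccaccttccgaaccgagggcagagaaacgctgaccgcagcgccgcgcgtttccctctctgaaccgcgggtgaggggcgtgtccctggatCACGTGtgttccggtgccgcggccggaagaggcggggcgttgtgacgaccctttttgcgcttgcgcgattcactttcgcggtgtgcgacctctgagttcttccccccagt
Mybbp1a: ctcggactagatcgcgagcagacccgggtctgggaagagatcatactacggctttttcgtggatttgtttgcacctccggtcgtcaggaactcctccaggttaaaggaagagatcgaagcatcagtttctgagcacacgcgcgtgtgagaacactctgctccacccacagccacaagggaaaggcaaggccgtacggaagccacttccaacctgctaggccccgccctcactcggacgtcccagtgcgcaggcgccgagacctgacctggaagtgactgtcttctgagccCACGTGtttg
The letters CACGTG were searched on both strands, where they read alike, and occurred in the windows of 5 members, also of Utp20 and Wdr43, which were not measured. They were in 17.2% of the 29 member promoters (26 genes matched) and in 7.15% of the 32851 promoters of the table. The shorter ACGTG, the core of the hypoxia response element, which every CACGTG holds, was in 24.1% of member promoters and in 19.6% of all promoters. These matches are a description of the letters only.

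**Figure D1:**
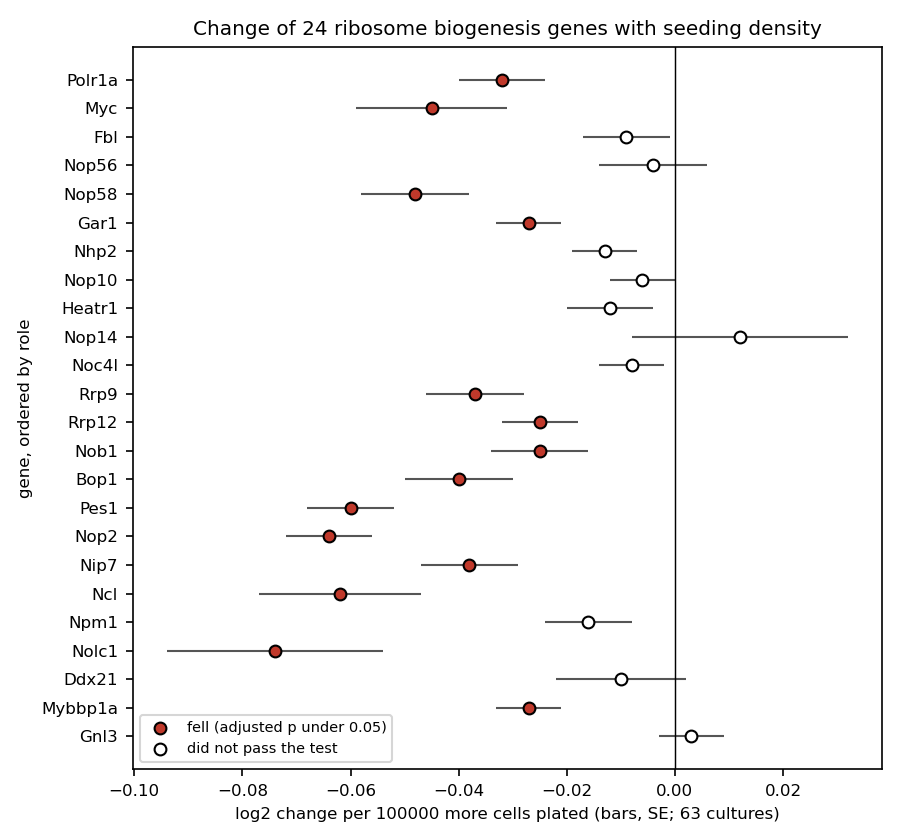
Slope of each of the 24 tested members on seeding density (log2 units per 100000 seeded cells, point with SE, from 63 cultures), grouped by role; 22 of 24 points lie below 0.

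Nop2 and Pes1 had the lowest adjusted p of the members. Over the 21 cultures at each density, the 7 lines under 3 exposures, its level had a median of 9.44 (9.12 to 10.3) at 200000 cells, 9.29 (8.7 to 10.24) at 400000 and 9.22 (8.64 to 10.11) at 600000. The ranges overlap because lines differ, but within a line and exposure the densest culture was below the sparsest in 21 of 21 cases. Its change over the whole range was -0.25 ± 0.03 (log2, SE; adjusted p = 5.97e-08, limma). Pes1 had a median of 9.96 (9.42 to 10.52) at 200000 cells, 9.75 (9.27 to 10.53) at 400000 and 9.5 (9.12 to 10.53) at 600000. It was lower at the highest density in 19 of 21 line and exposure combinations and changed by -0.24 ± 0.03 (adjusted p = 5.92e-08). For Pes1 the slope was -0.075 ± 0.011 per 100000 cells in normoxia, -0.016 ± 0.011 after 4 h of hypoxia, where it was not called, and -0.089 ± 0.011 after 24 h. Taken by exposure, with 21 cultures each, 8 members fell with density in normoxia (8.27% of all genes), 6 after 4 h of hypoxia (14.8%) and 6 after 24 h (6.74%), and 0 rose at any of them. A difference in slope between 24 h of hypoxia and normoxia was called for none of the 24 members by limma (also none at an unadjusted p below 0.05), where 3.04% of all genes were called.

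Among the nucleolar proteins, Ncl (nucleolin) had medians of 11.47, 11.5 and 11.24 at the rising densities and changed by -0.25 ± 0.06 (adjusted p = 0.00095). Nolc1, a chaperone of small nucleolar particles, had medians of 6.1, 5.98 and 5.86 and changed by -0.30 ± 0.08 (adjusted p = 0.00346), the largest change among the 14 that fell and also the one with the largest error. Its slope was steepest in the reconstituted line (-0.189 per 100000 cells), where the normoxia array at 600000 cells lay in another array set than those at the lower densities. Over all lines the slope of Nolc1 was -0.074 per 100000 cells, without the reconstituted line -0.055, and with the set as a fixed block -0.068. In 5 of the 21 combinations of line and exposure the arrays were split over 2 sets, each time with the denser cultures in the later set, and with the set as a fixed block 14 members fell. Mybbp1a fell too, by 0.11 ± 0.02, whereas Npm1 (nucleophosmin), Ddx21 and Gnl3 (nucleostemin) were not called. The level of Gnl3 had medians of 12.82, 12.81 and 12.81.

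Of the box C/D proteins, Nop58 changed by -0.19 ± 0.04 (adjusted p = 0.000183), with medians of 12.08, 11.85 and 11.83. Its step lay between the lower 2 densities, and without the cultures at 200000 cells its slope was 0.002. Its partners Fbl (fibrillarin, the methyltransferase) and Nop56 were not called. Gar1 was the only called box H/ACA protein of the 3 tested (-0.11 ± 0.02). Of the 6 small subunit factors, Rrp9 (-0.15 ± 0.03), Rrp12 (-0.10 ± 0.03) and Nob1, the endonuclease that matures the small-subunit rRNA (-0.10 ± 0.04), fell. Polr1a, the largest subunit of RNA polymerase I, changed by -0.13 ± 0.03.

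Myc lay at the lowest value in 7, 12 and 15 of the 21 cultures at the rising densities. Its fitted change was -0.18 ± 0.06 (adjusted p = 0.0111, limma), which values held at the lowest value can understate. A second probe of Myc lay at the lowest value on all 63 arrays. Every result for Myc given here therefore rests on 1 probe, whose highest level was 5.28. Of 6 tested genes of the Myc network only Mycl was called, with a slope of -0.046 ± 0.014 per 100000 cells (adjusted p = 0.012).

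**Figure D2:**
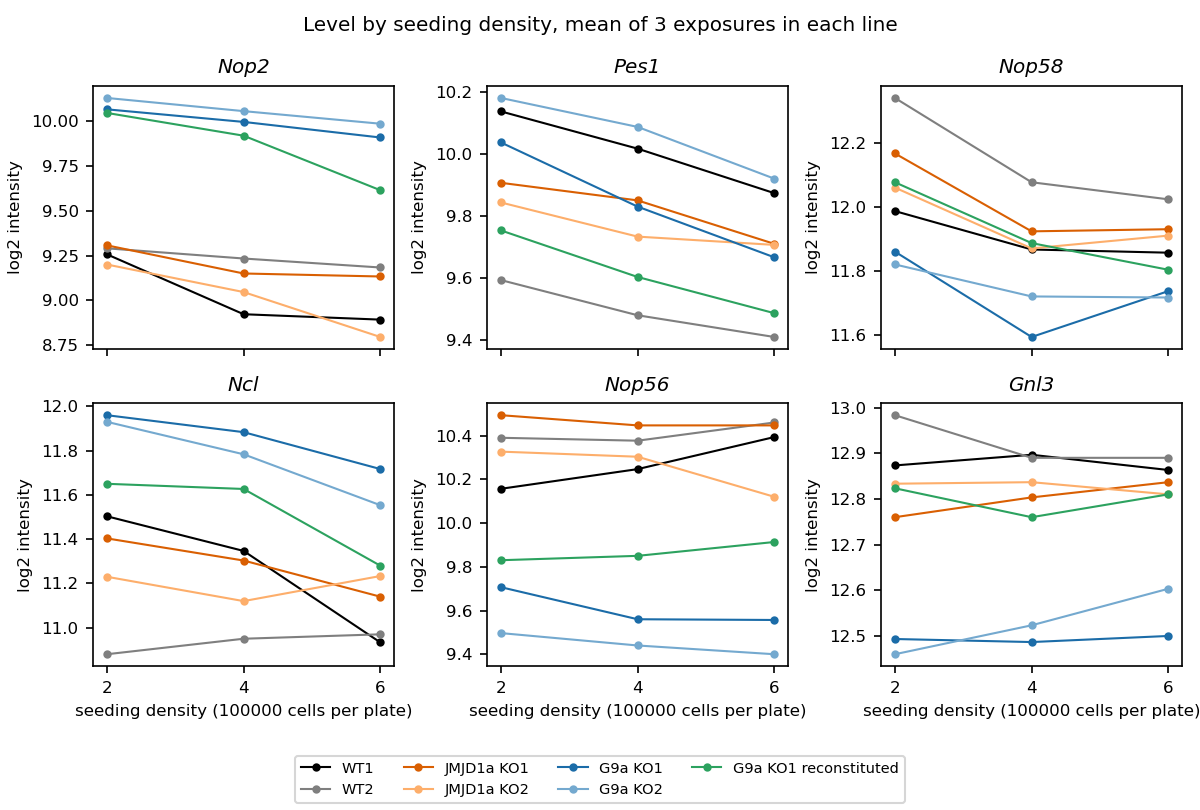
Level of 6 members (log2 intensity) by seeding density, each line showing the mean over the 3 exposures in 1 of the 7 cell lines. Nop2 and Pes1 go down in all 7 lines, and Gnl3 in 4 of 7.

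Of 110 tested ribosome biogenesis genes outside the set, 38 fell and 2 rose, the steepest being Pdcd11 (-0.089 ± 0.021 per 100000 cells), Dhx37 (-0.079 ± 0.011), Wdr18 (-0.077 ± 0.010) and Exosc4 (-0.068 ± 0.008). Of 60 ribosomal protein genes 5 fell and 5 rose. Hypoxia-induced genes rose with density in the same cultures, 7 of 7, among them Adm (0.20 ± 0.03 per 100000 cells), Egln3 (0.18 ± 0.03) and Ndrg1 (0.17 ± 0.03), and 2 of 10 ES cell markers fell (Sall4, -0.055 ± 0.007, and Utf1, -0.020 ± 0.008), and their part in the fall of the members was not tested. With the line as the unit (n = 7 slopes), 7 members fell (Polr1a, Myc, Nop58, Pes1, Nop2, Nip7 and Nolc1), against 8.12% of all genes. The count was 2 without the cultures at 200000 cells (Pes1 and Polr1a) and 7 without those at 600000 cells, and Pes1 was called without any 1 density. Left out 1 at a time, the lines gave 13 or 14 calls, without WT2 13. Other kept probes of the same genes had the same sign in 14 of 15 cases.

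Hypoxia was compared with normoxia over all 7 lines, taking the mean response of each line (3 densities) as 1 value, a comparison added after the values by genotype had been seen. The 7 lines include G9a KO1 and the reconstituted line made from it, so they are not fully independent. The same holds for the 7 density slopes by line above. After 4 h 2 members rose and 5 fell, where 17% of all genes rose and 16.5% fell, and after 24 h 0 rose and 3 fell, where 12.8% rose and 12.9% fell. The share of members called was at no time above that of all genes, 33.5% at 4 h and 25.7% at 24 h in either direction, and the members' median was -0.046 (all genes -0.007) at 4 h and -0.024 (all genes -0.008) at 24 h. Noc4l, Rrp9 and Nop10 fell at both times. Pes1 rose at 4 h and was lower at 24 h than at 4 h.

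Pes1 had a median of 9.73 (9.39 to 10.16) over the 21 normoxia cultures, 10.18 (9.68 to 10.53) over those after 4 h of hypoxia and 9.5 (9.12 to 9.98) over those after 24 h. At matched line and density, every one of the 21 cultures was higher after 4 h than in normoxia, and 18 of 21 were lower after 24 h, though over the 7 lines the 24 h difference of -0.18 ± 0.06 was not called (adjusted p = 0.0519, limma). The 4 h response averaged 0.44 ± 0.06 (SE, n = 7 lines; adjusted p = 0.00106, limma), from 0.22 in WT1 to 0.65 in G9a KO1. From 4 h to 24 h of hypoxia Pes1 fell by 0.62 ± 0.06 (adjusted p = 0.000553), in 7 of 7 lines. Where both exposures had arrays in 1 array set, Pes1 was higher after 4 h in 6 of 6 lines and lower after 24 h in 3 of 3. Density was not matched in these within-set means, and it differed between the exposures in some lines.

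Noc4l, a small subunit assembly factor, had a median of 9.3 (9.14 to 9.54) in normoxia, 9.1 (8.76 to 9.45) after 4 h and 9.04 (8.9 to 9.19) after 24 h. It was lower than in normoxia in 21 of 21 matched pairs at both times, by 0.21 ± 0.04 at 4 h (adjusted p = 0.00359) and 0.29 ± 0.06 at 24 h (adjusted p = 0.00861). Only the highest 24 h cultures reached the lowest normoxia cultures. A second probe of Noc4l had the same sign in each of the 6 comparisons by genotype in the JMJD1a KO, G9a KO and wild-type lines. In the reconstituted line at 4 h the probes did not go together: the brightest probe had -0.18, and the mean of the kept probes was 0.03. Rrp9, which binds the U3 small nucleolar RNA, had a median of 9.43 (9.12 to 9.71) in normoxia, 9.23 (8.98 to 9.5) after 4 h and 9.09 (8.67 to 9.51) after 24 h. It was lower in 20 of 21 pairs at both times, by 0.19 ± 0.05 at 4 h (adjusted p = 0.016) and 0.36 ± 0.09 at 24 h (adjusted p = 0.0183). The 24 h response of Rrp9 was widest in JMJD1a KO2 (-0.83) and narrowest in G9a KO2 (-0.13).

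The snoRNP proteins did not move together. Nop10, a box H/ACA core protein, had a median of 12.2 in normoxia, 12.03 after 4 h and 11.95 after 24 h, and was lower in 7 of 7 lines at both times, by 0.13 ± 0.03 (adjusted p = 0.0176) and 0.20 ± 0.06 (adjusted p = 0.0309). Its partner Nhp2 fell at 4 h, by 0.15 ± 0.04 (adjusted p = 0.0218, 7 of 7 lines), and was not called at 24 h, with medians of 12.55, 12.38 and 12.44. Of the box C/D core, Nop56 fell by 0.30 ± 0.09 at 4 h (adjusted p = 0.0277, 6 of 7 lines), while Nop58 rose by 0.17 ± 0.05 (adjusted p = 0.029, 6 of 7 lines) and Fbl was not called.

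Between 4 h and 24 h of hypoxia 3 members fell and 0 rose, where 12.9% of all genes fell and 10% rose. Besides Pes1 these were Rrp12 (-0.18 ± 0.05, adjusted p = 0.0278) and Heatr1 (-0.17 ± 0.05, adjusted p = 0.0364), both factors of small subunit maturation. The same normoxia or 4 h cultures enter more than 1 of these comparisons.

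**Figure D3:**
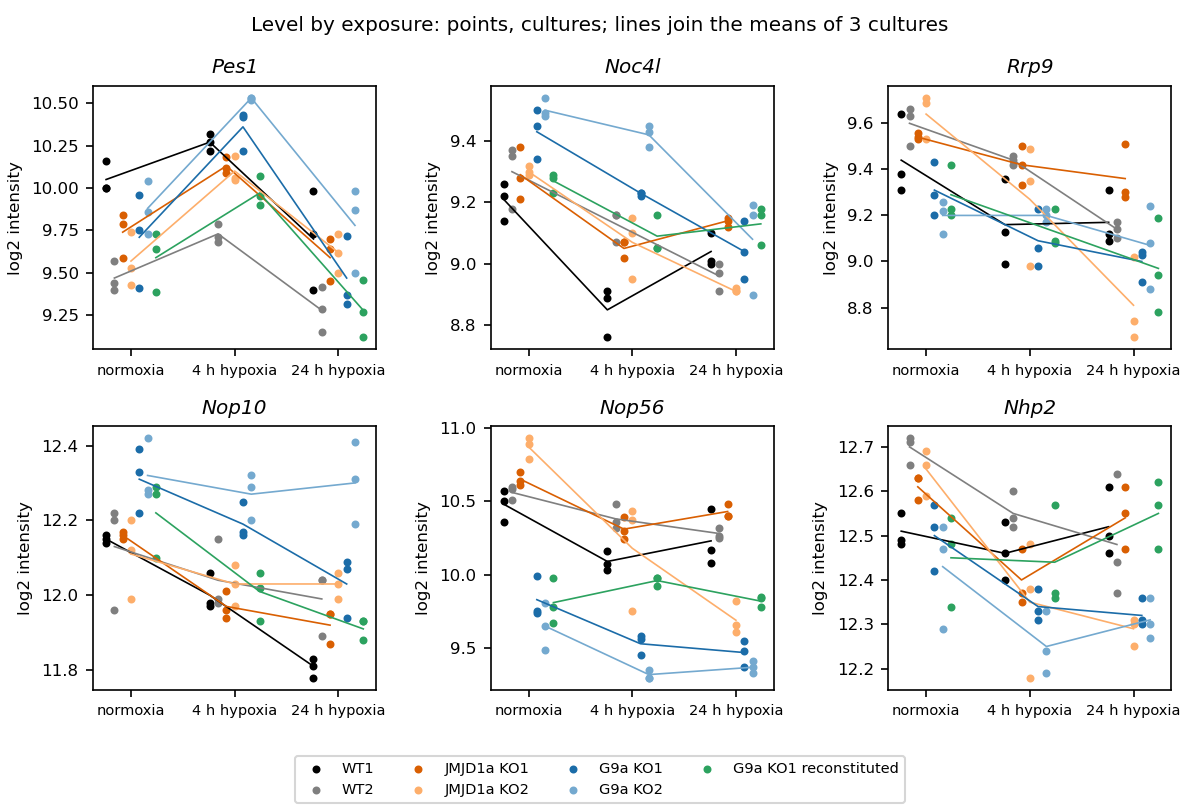
Level of 6 members (log2 intensity) in normoxia and after 4 h and 24 h of hypoxia, with a point for each of 21 cultures per exposure and lines joining the means. Pes1 peaks at 4 h (median 10.18), and Noc4l goes down at both times.

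Calls of Pes1 and Noc4l held under each of 17 alternatives, with highest adjusted p of 0.00423 (Pes1, 4 h), 0.00363 (Pes1, 24 h against 4 h), 0.0143 (Noc4l, 4 h) and 0.0276 (Noc4l, 24 h). Rrp9 was called in 17 of 17 at 4 h and in 16 of 17 at 24 h, and the others in 8 to 14 of 17. Leaving out 1 line or 1 density gave 3 to 8 called members at 4 h (5 without WT2) and 1 to 5 at 24 h (without WT2 1, Noc4l). Among the 110 other ribosome biogenesis genes 5 rose and 32 fell at 4 h, and 3 rose and 21 fell at 24 h. The largest changes were those of Rsl24d1 (-0.67 ± 0.04 at 4 h, -0.57 ± 0.05 at 24 h), Krr1 (-0.66 ± 0.06 and -0.54 ± 0.10), Polr1e, a further subunit of RNA polymerase I (-0.40 ± 0.03 and -0.53 ± 0.08), Utp15 at 4 h (0.47 ± 0.09) and Pdcd11 at 24 h (-0.51 ± 0.12). Of the 60 ribosomal protein genes, 4 rose and 3 fell at 4 h, and 1 rose and 6 fell at 24 h. Known hypoxia-induced genes rose, 6 of 7 at each time, with median responses of 1.20 and 1.18.

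Each genotype was then compared with its own normoxia cultures, over cultures. In the JMJD1a KO lines 1 member rose and 6 fell at 4 h (13.5% and 16.9% of all genes), and 4 rose and 7 fell at 24 h (22.5% and 27.5%). In the G9a KO lines 4 rose and 4 fell at 4 h (16.2% and 17.5%), and 0 rose and 8 fell at 24 h (21.2% and 24.8%). In the reconstituted line 6 rose and 4 fell at 4 h (22.9% and 14.5%), and 5 rose and 6 fell at 24 h (23.6% and 15.4%). In the wild-type lines 3 rose and 5 fell at 4 h (14.4% and 13%), and 3 rose and 6 fell at 24 h (18% and 18.9%). With the line as the unit, 4 members were called in the JMJD1a KO lines, 1 in the G9a KO lines and 2 in the wild-type lines at 4 h, and 0 in each at 24 h. Between 3 and 7 of the 10 ES cell markers fell in each of these 8 comparisons, and their part in the members' changes was not tested.

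In the wild-type lines Myc was among the largest changes at 4 h. It lay at the lowest value in all 6 cultures after 4 h of hypoxia, and in normoxia had 4.93, 4.68 and 4.32 in WT1 and 5.28, 5.24 and 4.32 in WT2 at the rising densities. The mean in normoxia lay 1.39-fold above the lowest value, a ratio that is no strict bound because 2 normoxia cultures were also held there. The fitted change was -0.47 ± 0.11 (adjusted p = 0.000524, limma). After 24 h all 6 wild-type cultures were above the lowest value, between 4.66 and 5.2. In the JMJD1a KO lines the 4 h change of Myc was -0.27 (adjusted p = 0.0516). In the G9a KO lines Myc lay at the lowest value in all 6 normoxia cultures, so a fall could not be measured there. The reconstituted line had 4.33, 4.61 and 4.55 in normoxia.

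Other calls in the wild-type lines at 4 h were falls of Nop56 (-0.28 ± 0.07), Noc4l (-0.26 ± 0.04), Rrp9 (-0.22 ± 0.07) and Nip7 (-0.19 ± 0.07), and rises of Pes1 (0.24 ± 0.06), Heatr1 (0.17 ± 0.06) and Rrp12 (0.15 ± 0.06). One of the other 2 kept probes of Heatr1 had -0.05 and lay above the lowest value on 37 of 63 arrays. The other, above it on all 63, had 0.275. As the mean of its probes Heatr1 was not called. At 24 h Rrp9 (-0.37 ± 0.07), Nop56 (-0.27 ± 0.07), Pes1 (-0.27 ± 0.06), Noc4l (-0.26 ± 0.04), Nop10 (-0.24 ± 0.05) and Rrp12 (-0.15 ± 0.06) fell, and Ddx21, an RNA helicase (0.28 ± 0.09), Nop2 (0.25 ± 0.06) and Mybbp1a (0.13 ± 0.05) rose. One of the other 2 probes of Nop2 went the opposite way (-0.09). Without WT2 there were 3 calls at 4 h and 6 at 24 h, and Ddx21 had -0.06. Without the cultures at 400000 cells there was 1 call at 4 h.

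The JMJD1a KO lines differed in the size of their 24 h change. Nop56 in JMJD1a KO2 had 9.66, 9.61 and 9.82 after 24 h of hypoxia, against 10.89, 10.93 and 10.79 in normoxia, whereas in JMJD1a KO1 it had 10.48, 10.4 and 10.4, against 10.61, 10.7 and 10.64. The groups did not overlap in either line, and the averaged change was -0.70 ± 0.07 (adjusted p = 6.02e-11). In both JMJD1a KO lines all 3 of the 24 h arrays lay in another array set than the normoxia arrays. Rrp9 (-0.51 ± 0.07) and Noc4l (-0.27 ± 0.04) followed, and Ncl (0.45 ± 0.11), Nop14 (0.37 ± 0.15), Ddx21 (0.23 ± 0.09) and Nop2 (0.14 ± 0.06) rose. Both other probes of Nop2 went the opposite way (-0.08 and -0.02). Without JMJD1a KO2 4 members were called, and Ncl (-0.06), Nop14 (-0.34) and Ddx21 (-0.22) changed sign. At 4 h Nop56 (-0.52 ± 0.07), Nhp2 (-0.26 ± 0.05), Rrp9 (-0.25 ± 0.07), Noc4l (-0.24 ± 0.04), Nip7 (-0.23 ± 0.07) and Nop10 (-0.14 ± 0.05) fell, and Pes1 (0.46 ± 0.06) rose. A further probe of Nip7 had 0 there, but it lay above the lowest value on only 15 of 63 arrays. Values held at the lowest value can also give a difference of 0.

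In the G9a KO lines the largest fall at 24 h was that of Nip7. In G9a KO1 it had 9.62, 9.49 and 9.63 after 24 h, against 10.34, 10.12 and 9.98 in normoxia, and in G9a KO2 10.19, 9.94 and 10.04, against 10.5, 10.52 and 10.26. The levels did not overlap in either line, and the change was -0.47 ± 0.07 (adjusted p = 2.29e-07). Noc4l (-0.40 ± 0.04), Nop56 (-0.32 ± 0.07), Rrp9 (-0.22 ± 0.07), Heatr1 (-0.18 ± 0.06) and Pes1 (-0.17 ± 0.06) also fell. At 4 h Pes1 rose by 0.65 ± 0.06 (adjusted p = 1.84e-12), to 10.43, 10.42 and 10.22 in G9a KO1, against 9.96, 9.75 and 9.41 in normoxia, and to 10.52, 10.53 and 10.53 in G9a KO2, against 10.04, 9.86 and 9.73. Nop2 (0.24 ± 0.06), Nop58 (0.22 ± 0.08) and Gar1 (0.17 ± 0.04) rose as well, and Nop56 (-0.32 ± 0.07), Nip7 (-0.18 ± 0.07), Nhp2 (-0.17 ± 0.05) and Noc4l (-0.14 ± 0.04) fell. The other 2 probes of Nop2 had -0.28 and 0.08. The exposures lay in different sets for most of these arrays. Without G9a KO1 there were 3 calls at 24 h and 4 at 4 h, and without G9a KO2 8 and 3. Without the cultures at 400000 cells there were 5 at 24 h and 3 at 4 h.

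**Figure D4:**
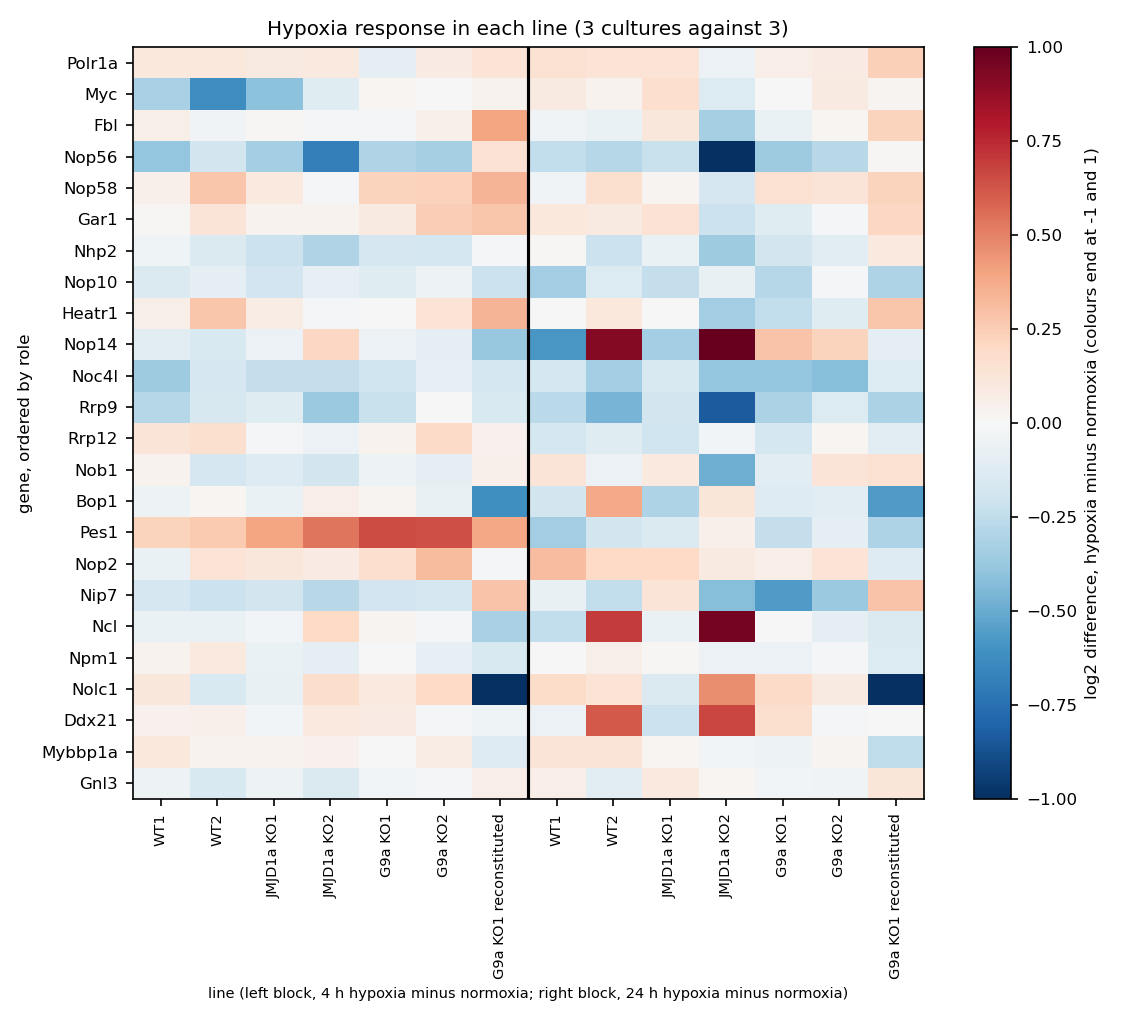
Mean response of each of the 24 tested members (rows) in each of the 7 lines (columns) after 4 h and 24 h of hypoxia, as log2 hypoxia minus normoxia over 3 densities. Pes1 is higher in all 7 lines at 4 h, and Noc4l is lower in all 7 at both times.

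Some members differed widely between array sets within a line and exposure. In the 5 combinations split over 2 sets the later set always held the denser cultures, so that the step is also one of density. It ran from -1.54 to 0.98 for Nop14, from -1.38 to 0.36 for Nolc1, from -1.17 to 0.56 for Ncl, from -0.81 to 0.54 for Ddx21 and from -0.68 to 0.24 for Bop1. Noc4l had steps of -0.17 to 0.1 and Nop10 of -0.18 to 0.04. The largest hypoxia changes in the reconstituted line lay in 2 of these genes. Nolc1 had 4.83, 4.79 and 4.32 there after 4 h and 5.07, 4.89 and 4.83 after 24 h, against 6.65, 6.36 and 5.13 in normoxia. The normoxia culture with 5.13 was the one whose array lay in the set of the hypoxia arrays. The fitted change of Nolc1 was -1.40 ± 0.21 at 4 h and -1.11 ± 0.21 at 24 h, and that of Bop1 was -0.61 ± 0.10 and -0.56 ± 0.10. With the set as a fixed block, 2 members were called in this line at 4 h in place of 10, and 1 at 24 h in place of 11.

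Further calls in the reconstituted line at 4 h were rises of Fbl (0.39 ± 0.08), Pes1 (0.39 ± 0.08), Heatr1 (0.34 ± 0.08) and Nop58 (0.34 ± 0.11) and falls of Nop10 (-0.22 ± 0.07) and Noc4l (-0.18 ± 0.06). At 24 h Rrp9 (-0.32 ± 0.09), Nop10 (-0.31 ± 0.07) and Pes1 (-0.31 ± 0.08) fell, and Nip7 (0.29 ± 0.10), Heatr1 (0.28 ± 0.08), Polr1a (0.24 ± 0.09), Fbl (0.22 ± 0.08) and Gar1 (0.21 ± 0.06) rose. With the set as a fixed block Nip7 had -0.05 and Fbl -0.11 at 24 h, and as the mean of its probes Noc4l had 0.03 at 4 h, so these directions turned. Pes1 had 10.07, 9.9 and 9.95 after 4 h and 9.46, 9.27 and 9.12 after 24 h, against 9.73, 9.64 and 9.39 in normoxia.

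The knockout lines were compared with the wild-type lines on line means, 2 lines a genotype. No member was called for JMJD1a KO against wild-type by limma, either in normoxia or after 24 h of hypoxia, where 0.0114% of all genes were called each time, and none had an unadjusted p below 0.05. Likewise no member's 24 h response was called as different in the JMJD1a KO or the G9a KO lines from that in the wild-type lines (0% of all genes, and no member at an unadjusted p below 0.05).

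G9a KO lines differed from wild-type lines in normoxia: 1 member rose and 7 fell, where 7.35% of all genes rose and 16.1% fell. Nop2 had 9.99, 9.92 and 9.82 in G9a KO1 and 9.96, 9.9 and 9.85 in G9a KO2, against 9.16, 8.94 and 8.73 in WT1 and 9.24, 9.1 and 9.03 in WT2. All 6 knockout cultures lay above all 6 wild-type cultures, with a difference of 0.87 ± 0.09 (SE, adjusted p = 0.0172). Nob1 had 9.03, 8.86 and 8.84 in G9a KO1 and 9.31, 9.17 and 9.39 in G9a KO2, against 10.18, 10.1 and 10.04 in WT1 and 10.26, 10.33 and 10.21 in WT2. It differed by -1.08 ± 0.15 (adjusted p = 0.0233), again without overlap. Nip7 had 10.34, 10.12 and 9.98 in G9a KO1 and 10.5, 10.52 and 10.26 in G9a KO2, against 11.19, 11.26 and 11.18 in WT1 and 11.45, 11.32 and 11.4 in WT2, a difference of -1.02 ± 0.13 (adjusted p = 0.0207), which as the mean of its probes was -0.29 and not called (adjusted p = 0.346). The other probe in that mean lay above the lowest value on only 15 of 63 arrays. By the brightest probe the knockout cultures of Nip7, too, all lay below the wild-type ones.

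Nop56 lay between 9.49 and 9.99 (median 9.74) in G9a KO cultures, against 10.36 to 10.6 (median 10.54) in wild-type cultures, and differed by -0.78 ± 0.12 (adjusted p = 0.0244). Gar1 lay between 11.29 and 11.73 (median 11.44), against 11.93 to 12.11 (median 12.05), and differed by -0.56 ± 0.08 (adjusted p = 0.0226). Fbl lay between 11.57 and 11.81 (median 11.66), against 12 to 12.28 (median 12.11), and differed by -0.46 ± 0.08 (adjusted p = 0.0304). The groups did not overlap for these 3 genes. The share of all genes without such overlap is not given here, for these or for Nop2, Nob1 and Nip7. All of them were picked by the size of their called differences. Gnl3 differed by -0.41 ± 0.08 (adjusted p = 0.034) and Nop58 by -0.33 ± 0.06 (adjusted p = 0.0373), and the levels of Nop58 overlapped.

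**Figure D5:**
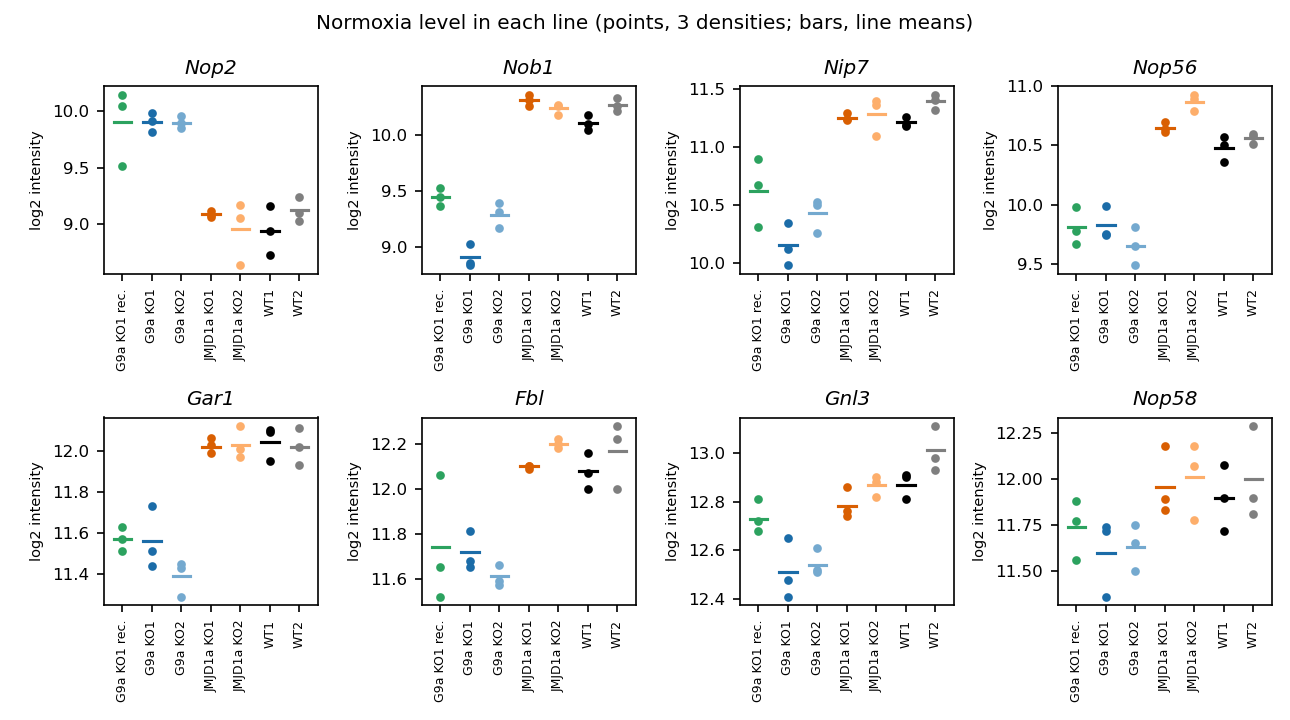
Level of the 8 called members (log2 intensity) in normoxia, with a point per culture, for the reconstituted line, the G9a KO lines, the JMJD1a KO lines and the wild-type lines. Nop2 lies between 9.82 and 9.99 in the G9a KO cultures, above the wild-type range, and Nob1 and Nip7 lie below it.

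Nob1 and Nip7 were lower than in wild-type cultures in the reconstituted line as well (9.37 to 9.53, and 10.31 to 10.89), and Nop2 had 10.15, 10.05 and 9.52 there. Quantile scaling put the median of all genes at -0.125 in this comparison, that of genes above the lowest value at -0.199, and the members' median at -0.101. With no further scaling these were 0.036, 0.021 and 0.031, and 3 members rose and 5 fell. With median scaling 1 rose and 5 fell. Without WT2 only Nop2 was called, without G9a KO1 or without G9a KO2 3 members, and without WT1 11. In the 1 array set with G9a arrays and arrays of another genotype, 4 G9a KO1 arrays had lower Nob1 (8.84 to 9.05), Nip7 (9.98 to 10.34) and Gar1 (11.44 to 11.73) than 4 JMJD1a KO2 arrays (9.62 to 9.9, 10.7 to 11.07 and 11.76 to 11.92). Nop2 was higher (9.82 to 10.14, against 8.8 to 9.18), and Nop56, Fbl, Nop58 and Gnl3 overlapped. Among members not called for genotype, Nhp2, Nop10, Nop14, Noc4l, Rrp9, Rrp12 and Bop1 did not overlap in this set either, all higher in G9a KO1. The share of all genes without overlap in this set is not given, so whether the members stand out cannot be told. The exposures of the 2 lines differed in this set, so genotype and exposure cannot be told apart there. Other ribosome biogenesis genes changed as well, 5 of 110 rising and 21 falling, the largest being Riok2 (3.82 ± 0.53), Exosc3 (2.55 ± 0.51), Mtrex (1.06 ± 0.06) and Exosc7 (-0.95 ± 0.06). Of the ES cell markers Tdgf1 (4.24 ± 0.92) and Nanog (1.02 ± 0.12) rose and Dppa4 (-0.64 ± 0.06) fell, and their part was not tested. After 24 h of hypoxia only Nop2 was called (0.72 ± 0.12, adjusted p = 0.0473), where 3.25% of all genes rose. It was not called without any 1 of the 4 lines, and the median of all genes was -0.128 there (-0.212 for genes above the lowest value).

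The reconstituted line was set against its parent G9a KO1 in normoxia, 3 cultures each. Nob1 had 9.37, 9.45 and 9.53, against 9.03, 8.86 and 8.84 in the parent, and rose by 0.54 ± 0.10 (adjusted p = 2.16e-05). Nip7 had 10.67, 10.31 and 10.89, against 10.34, 10.12 and 9.98, and rose by 0.48 ± 0.10 (adjusted p = 0.000149), and Gnl3 rose by 0.22 ± 0.07 (adjusted p = 0.0113). Nob1 did not overlap between the lines, and Nip7 did by 1 culture of each. Bop1 (-0.32 ± 0.10) and Noc4l (-0.16 ± 0.06) fell. In all 14.9% of genes rose and 13.3% fell. Nop2, Nop56, Gar1, Fbl and Nop58 were not called. The lines share no array set, no member was called with the set as a random block, and without the cultures at 200000 or 400000 cells 2 were.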

How the data were processed

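Total RNA of 63 ES cell cultures was hybridised to Illumina mouse arrays. The deposited values are linear intensities per probe, made by the authors with BeadStudio, per the submitters' processing notes; the sources used here give no background or scaling settings. The deposited values have a floor of 20 and reach 41907. One array repeated the value 21.86 at 9339 probes, which was taken as its floor. A further 126 columns of the deposited tables could not be tied to samples and were not used.

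Intensities were quantile normalized and log2 transformed in limma 3.58.1 (R 4.3.3). Of 25697 probes, 12754 exceeded the floor on each of the 3 arrays of 1 or more line-by-exposure groups; 23978 carried a gene symbol. Each gene was represented by its brightest probe on average, which left 8740 genes. Hypoxia, density and reconstituted comparisons used limma on 63 arrays with 21 line-by-exposure means and a linear density term. Knockout comparisons used line means, and comparisons over 7 lines used line-level differences, with the line as the unit. All tests were two-sided, with Benjamini-Hochberg adjustment over all genes and a threshold of 0.05.

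Members and gene lists were chosen with earlier results of these data known. Full values were given for Myc and up to 6 called members with the largest difference per comparison, and for calls in the smaller direction where there were 5 or fewer. Overlap of groups was described for named members only, and the share of all genes without overlap is not given. No 2 arrays were identical, and the lowest correlation within a line and exposure was 0.962. Cultures of 1 line and density share a number through the labels' density field; deviations of 63 such pairs correlated between -0.161 and 0.448 (median 0.236), so they were not treated as pairs. The fits were tested on simulated data of 8740 genes with independent noise and, beside the planted changes, no effect of line, exposure or array set. There the density fit recovered 80% of slopes of -0.05 and the 7-line fit at 4 h 78% of changes of -0.25. The wild-type fit at 24 h recovered 28% of changes of 0.25, and G9a KO against wild-type in normoxia 68% of changes of -0.5. The real arrays hold such effects, so these shares are not the power in the data. Alternatives covered scaling, the filter, probe choice, leaving out each line and density, array sets as blocks and the unit of replication; the set as a random block, the fits over 7 lines and leaving out the array with the raised value were chosen after seeing the data. Promoter windows are RefSeq's (GRCm38.p6). The number of arrays limits the precision, and values at the floor have no order.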

Additional observations from a re-analysis of the deposited data

Results flagged for a closer look

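Within groups of 6 cultures and within the 7 line responses, 262 sets of member values were examined for a lowest or highest value far from the rest, and 22 had one. Chance flags about 1 in 20 such groups. In WT1 after 24 h of hypoxia, the culture seeded at 600000 cells was low for Polr1a (10.89), Bop1 (9.14) and Ncl (10.34), and in JMJD1a KO2 after 4 h the culture seeded at 600000 cells was low for Nop56 (9.75), Rrp9 (8.98) and Nob1 (9.62). Both arrays lay in another array set than the other 2 cultures of their line and exposure. Single low cultures were also those of Nop10 in WT2 in normoxia at 400000 cells (11.96), Pes1 in G9a KO1 after 4 h at 600000 cells (10.22), Nop2 in JMJD1a KO2 in normoxia at 600000 cells (8.64) and Ddx21 in G9a KO1 in normoxia at 200000 cells (11.54). Single high cultures were those of Nolc1 in JMJD1a KO2 after 24 h at 400000 cells (6.34), and of Myc in G9a KO1 after 4 h at 600000 cells (4.39) and in G9a KO2 after 24 h at 200000 cells (4.59), where the other 5 cultures lay at the lowest value.

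Among the line responses to 4 h of hypoxia, the reconstituted line stood apart with high values for Fbl (0.39) and Nip7 (0.29) and low ones for Bop1 (-0.61), Nolc1 (-1.40) and Mybbp1a (-0.13), and G9a KO1 with a low one for Polr1a (-0.09). At 24 h the reconstituted line was low for Nolc1 (-1.11), and JMJD1a KO2 was low for Nop56 (-1.18) and Nob1 (-0.49). In both lines the 24 h arrays lay wholly or mostly in other array sets than the normoxia arrays, and the part of the sets was not tested.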

How the results depend on the processing

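Of 1284 alternative values for 91 named member results, 969 kept direction and call, 306 lost the call and 9 turned. Leaving out 1 density, Nop58 for density ranged over -0.099 to 0.002 (without 200000 cells); leaving out 1 line, at 24 h, Ddx21 in wild-type ranged over -0.057 (without WT2) to 0.613, and in JMJD1a KO Ncl over -0.064 to 0.955, Nop14 over -0.341 to 1.085 and Ddx21 over -0.216 to 0.67, each lower without KO2. The others were Nip7 (-0.054) and Fbl (-0.112) in the reconstituted line at 24 h with the set as a fixed block, Fbl (-0.036) with it as a random block, and Noc4l there at 4 h as the mean of its probes (0.027). The causes were not tested.

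Counts of called members moved as follows. With the line as the unit density gave 7 in place of 14; at 24 h wild-type, JMJD1a KO and G9a KO gave 0 each, and at 4 h 2, 4 and 1. With the set as a random block, JMJD1a KO gave 5 at 24 h, G9a KO 4 at 24 h and 2 at 4 h, the reconstituted line 2 and 4, and reconstituted against parent 0 (3 with no further scaling). With the set as a fixed block JMJD1a KO2 gave 2 at 24 h and 4 at 4 h, G9a KO1 3 and 1, and the reconstituted line 1 and 2. Median scaling gave 5 for G9a KO at 4 h. With cultures as the unit JMJD1a KO against wild-type gave 1 in normoxia and 4 at 24 h, G9a KO 20 at both, and the response differences 1 (JMJD1a KO) and 2 (G9a KO); over all 7 lines this gave 15 at 4 h, 14 at 24 h and 14 between 24 h and 4 h, and 14 each with the set as a random block. At 24 h over all lines either other filter gave 5, and for G9a KO against wild-type the stricter filter gave 6.

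Leaving out 1 density or line gave 2 to 14 for density; 5 to 11 at 24 h and 1 to 6 at 4 h in wild-type, 4 to 12 and 4 to 6 in JMJD1a KO, 3 to 9 and 3 to 8 in G9a KO, and 3 to 13 at both in the reconstituted line; 1 to 11 for G9a KO against wild-type in normoxia and 0 to 2 at 24 h; 2 to 5 for reconstituted against parent; and 3 to 8, 1 to 5 and 1 to 3 over all lines at 4 h, at 24 h and between them.

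With line and density pairs as a replicate block, wild-type gave 9 calls at 24 h (4 rose, 5 fell) and 8 at 4 h (2 rose, 6 fell), JMJD1a KO 11 and 7, G9a KO 8 and 8 and the reconstituted line 11 and 10; the pairs share only a number.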
